A study of Mus musculus with 8 samples.

Results

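The Wnt pathway genes of C3H10T1/2 cells, an established mouse mesenchymal line that can take on bone, cartilage, fat or muscle properties in culture, were followed after exposure to sphingosine 1-phosphate (S1P), a lipid that acts through G protein-coupled receptors. The genes were listed by symbol, with earlier results of these data known, and no measured value enters the rule. It takes every gene of the deposited count table whose symbol begins with Wnt, Fzd, Sfrp, Dkk, Rspo or Nkd and a number, together with Frzb, Lrp5, Lrp6, Ror1, Ror2, Axin2, Lef1, Tcf7, Notum, Lgr4 and Lgr5. They came to 45 of the 18306 genes in the table. There were 4 S1P libraries (replicates 5 to 8), from cells given 5 µM S1P for 24 h, and 4 vehicle libraries (replicates 1 to 4), from cells given 0.1% fatty acid-free albumin for 24 h. Cells of both groups had been kept without serum for 24 h beforehand, and no more than 10 passages were used. No genetic change is named in the labels, nor whether libraries came from separate cultures. The spread behind each p-value is therefore that of these libraries, and can be technical.

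Wnt proteins are lipid-modified signals that bind a Frizzled receptor. With the co-receptor Lrp5 or Lrp6 they keep beta-catenin from being broken down, so that it can act with Lef1 and Tcf7 on target genes. With Ror1 or Ror2 they signal without it. R-spondins strengthen the signal at the cell surface through Lgr receptors, while Axin2 and Nkd proteins restrain it inside the cell. Sfrp, Frzb, Dkk and Notum genes were grouped by symbol as secreted inhibitors, and the function of each was not tested. In mesenchymal cells the beta-catenin branch is known to favour the bone lineage over the fat lineage.

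Each library summed to between 13750303 and 13761544 counts, so the most that a gene with 0 counts could have held, taken as 3 counts, stood for 0.213 to 0.223 CPM, the unit used for levels, in which counts are scaled to a common library total after composition correction. Such limits cover counting error only. Vehicle replicate 4 stood apart. Its log2 deviation from the other vehicle libraries followed the GC content of the transcript, with Pearson's r = 0.76 across 11634 genes, which are not independent replicates, and mitochondrially encoded genes took 2.5% of its counts against 3.45% to 3.83% in the other 7 libraries. Of 12 mesenchymal markers all were in the table and 11 were tested, none past the threshold, and their summed level was 22429 to 27943 CPM in S1P libraries and 21876 to 28307 CPM in vehicle libraries. Pdgfra, a receptor that marks mesenchymal progenitors, averaged 762 ± 285 CPM in S1P libraries and 1571 ± 563 CPM in vehicle libraries (SD, n = 4 each), and did not pass (edgeR adjusted p = 0.0853). What part such differences have in the results was not tested. Of 6 endothelial markers, only Tek was above 0.25 CPM on average, and the summed level was 17.4 to 44.1 CPM in S1P libraries and 36.6 to 76.9 CPM in vehicle libraries. Leukocyte markers summed to 0.647 to 1.10 CPM in S1P libraries and to 0.497 to 1.92 CPM in vehicle libraries. In bulk RNA, fewer cells of a type and less RNA per cell cannot be told apart.

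Of the 45 genes chosen by symbol, only 1 passed the test, and it fell. Sfrp2, a secreted protein that binds Wnt ligands, was 3.15-fold lower after S1P. There were 29 genes with enough counts to be tested, of which 28 did not pass (edgeR quasi-likelihood test, Benjamini-Hochberg adjusted over all 11844 tested genes, threshold 0.05). The 1 lower gene is 3.45% of the 29 tested members, close to the 2.90% of all tested genes called lower, and no member was called higher, against 5.60% of all tested genes. By the unadjusted edgeR p (under 0.05), 3 members were higher and 8 lower. Together this is 37.9% of those tested and stands beside 24.9% of all tested genes (1559 higher and 1385 lower of 11844). DESeq2 called 4 members lower and 0 higher, beside 6.79% lower and 8.16% higher over all tested genes. With a surrogate variable in the edgeR model, 5 members were lower and 1 higher, beside 8.57% and 12.4% of all tested genes. Without a filter on low counts all 45 members were tested and none was called, beside 1.69% lower and 3.41% higher over all genes. Without vehicle replicate 4, 2 members were lower and 0 higher, beside 6.05% and 9.49% of all tested genes, and without both that library and S1P replicate 5 none was called, beside 7.87% and 9.92%. The S1P and vehicle libraries did not overlap for 4 of the 29 tested members (13.79%), against 19.1% of all tested genes.

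The members with the largest decreases were Sfrp2 and Dkk2, and the stretch of 250 bases before the transcription start is shown for these, with CG dinucleotides in capitals. The sequences are from RefSeq on build GRCm38.p6, plus strand, at chr3:83766071-83766320 for Sfrp2 and chr3:132085042-132085291 for Dkk2.
Sfrp2: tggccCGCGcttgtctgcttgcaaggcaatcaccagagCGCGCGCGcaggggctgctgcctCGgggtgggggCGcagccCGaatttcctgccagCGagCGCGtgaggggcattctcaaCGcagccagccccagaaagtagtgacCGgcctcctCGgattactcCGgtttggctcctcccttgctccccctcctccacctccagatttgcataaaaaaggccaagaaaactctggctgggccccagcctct
Dkk2: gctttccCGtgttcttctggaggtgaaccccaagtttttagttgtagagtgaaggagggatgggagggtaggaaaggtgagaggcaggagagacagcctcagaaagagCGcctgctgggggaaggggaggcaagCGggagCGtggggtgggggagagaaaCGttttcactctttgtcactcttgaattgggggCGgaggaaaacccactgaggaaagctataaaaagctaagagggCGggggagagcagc

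The Sfrp2 stretch held 16 CG dinucleotides and was 63.6% G or C, and the Dkk2 stretch held 7 and was 55.6% G or C. Neither held a TCF/LEF motif (CTTTGAA or CTTTGAT or CTTTGTA or CTTTGTT, on either strand), the TEAD motif CATTCC on either strand or a CArG box. A TCF/LEF motif was present in 14.8% of 32851 such stretches of all genes and in 5 of the 36 stretches of the 29 members found in the RefSeq table (13.9%), those of Dkk1, Fzd7, Lef1, Wnt11 and Wnt5b. The TEAD motif was in 12.6% of all stretches and in that of 1 member, Lgr4. A CArG box was in 1.47% of all stretches and in 3 of the 36 (8.33%), those of Lef1, Lgr4 and Tcf7. These are matches of letters and not sites of binding.

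**Figure D1:**
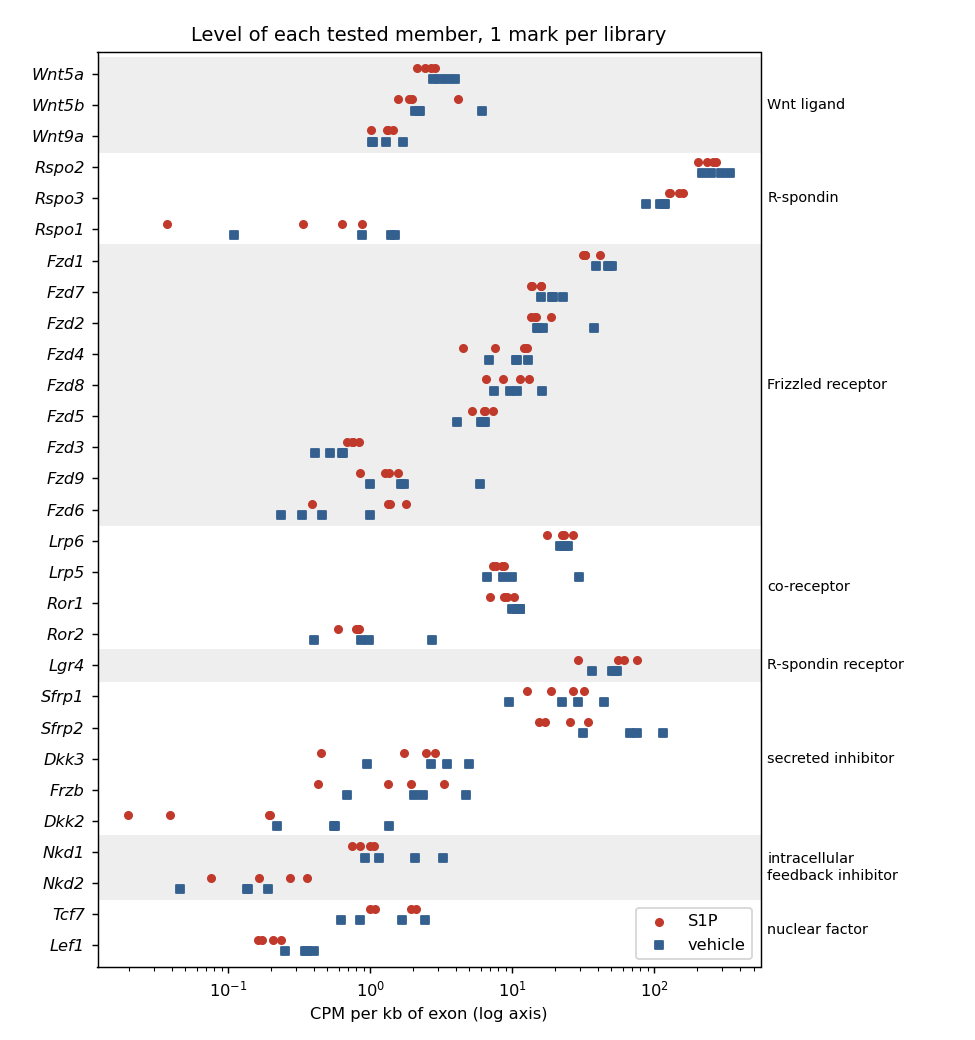
Level of the 29 tested members in CPM per kb of exon (log axis), with 1 mark per library, S1P above vehicle for each gene and the role at the right. The R-spondin genes Rspo2 and Rspo3 stood at the top in both groups, while the Wnt ligand genes lay below 10 CPM per kb in all 8 libraries.

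Among the ligands, few Wnt genes were measured above a handful of counts. Of 13 Wnt genes in the table, 3 were tested and none passed. Wnt5a, a ligand known mainly for signalling without beta-catenin (chromosome 14, 29317736 to 29340833 in mm9, the build of all gene spans here), had 16.7, 19.0, 22.5 and 21.0 CPM in S1P replicates 5 to 8, against 27.3, 23.8, 31.1 and 21.5 CPM in vehicle replicates 1 to 4. The groups overlapped through S1P replicate 7 and vehicle replicate 4. The log2 fold change, S1P minus vehicle, was -0.39 with a standard error (SE) of 0.16 and an edgeR adjusted p of 0.166. Without vehicle replicate 4 it was -0.47 and passed (edgeR adjusted p = 0.0483). Wnt5a passed in 2 of 16 alternative settings, and its edgeR adjusted p reached 0.341, without S1P replicate 6. Wnt5a was outside the rule for genes given in full and was described after its values had been seen, as were Wnt5b, Wnt9a, Fzd6, Fzd9, Ror1, Ror2, Nkd1 and the genes below the count filter.

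Wnt5b, a close relative of Wnt5a, averaged 6.35 ± 3.13 CPM in S1P libraries and 8.36 ± 5.23 CPM in vehicle libraries (SD, n = 4 each). Its highest values were 11.0 CPM in S1P replicate 8 and 16.2 CPM in vehicle replicate 4. The Wnt5b span shares 4619 bases with Fbxl14, a gene measured at 23.0 CPM, and how reads in the overlap were assigned is not given in the sources used here. Wnt9a had nearly equal means, 4.27 ± 0.626 CPM in S1P libraries and 4.21 ± 1.05 CPM in vehicle libraries (SD, n = 4 each), with a log2 fold change of 0.017 and an SE of 0.24.

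The other 10 Wnt genes stayed below the filter, and 8 of them had no more than 5 counts in any library. Wnt2 had 5, 2, 2 and 1 counts in S1P replicates 5 to 8, against 5, 17, 8 and 2 counts in vehicle replicates 1 to 4. Wnt11 had 3, 0, 1 and 2 counts in the S1P libraries and 1, 3, 2 and 13 in the vehicle libraries, so 1 vehicle library, replicate 4, held most of its reads. Wnt7b had 0 counts in all 4 S1P libraries and 2, 4, 1 and 1 in the vehicle libraries. Wnt3a, a classic ligand of the beta-catenin branch, summed to 1 count over the S1P libraries and 4 over the vehicle libraries. Wnt10b, which restrains fat cell formation in mouse, summed to 5 counts in S1P libraries and 7 in vehicle libraries.

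R-spondin genes were the most abundant members per length, and none passed the test. Rspo2 (chromosome 15, 42852157 to 43002564) reached 1395, 1032, 1333 and 1205 CPM in S1P replicates 5 to 8, against 1756, 1501, 1275 and 1107 CPM in vehicle replicates 1 to 4. These ranges overlapped widely, and the log2 fold change was -0.18 (SE 0.17, edgeR adjusted p = 0.521). Per kb of exon Rspo2 averaged 243 ± 31.3 CPM per kb in S1P libraries and 276 ± 55.1 CPM per kb in vehicle libraries (SD, n = 4 each). Rspo3 (chromosome 10, 29172715 to 29255873) had 402, 391, 462 and 490 CPM in S1P replicates 5 to 8, against 369, 361, 342 and 271 CPM in vehicle replicates 1 to 4. All 4 S1P libraries lay above all 4 vehicle libraries, but the log2 fold change of 0.38 (SE 0.13) did not pass (edgeR adjusted p = 0.118). Per length Rspo3 came next after Rspo2, at 141 ± 15.3 CPM per kb in S1P libraries and 109 ± 14.4 CPM per kb in vehicle libraries. Rspo1 was scarce and scattered, between 0.0722 and 1.69 CPM in S1P libraries and between 0.213 and 2.91 CPM in vehicle libraries.

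Within a library, the ratio of Rspo2 to Rspo3 (CPM per kb of each) was 2.10, 1.60, 1.74 and 1.49 in S1P replicates 5 to 8, against 2.87, 2.51, 2.25 and 2.47 in vehicle replicates 1 to 4. The groups did not overlap, and a ratio within a library does not depend on its scaling. Such ratios were looked at after the single genes had been seen and are given without a test. Of 60 ratios between tested members of the same role, 6 (10%) separated the groups, and 4 of those were between Frizzled genes. Those were Fzd1 with Fzd3, Fzd2 with Fzd3, Fzd3 with Fzd7 and Fzd5 with Fzd7. Rspo3 and Fzd3 also separated the groups as single genes. The share for ratios of all tested genes was not computed, so the 10% has no background beside it.

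The Frizzled receptor genes were all tested, 9 of 9, and none passed. Fzd1 (chromosome 5, 4753642 to 4758416) was the most abundant, with 133, 136, 137 and 175 CPM in S1P replicates 5 to 8, against 212, 164, 199 and 203 CPM in vehicle replicates 1 to 4. S1P replicate 8 lay above vehicle replicate 2, so the groups overlapped in that library alone. The log2 fold change was -0.42 (SE 0.13, edgeR adjusted p = 0.0766). Fzd1 passed in 2 of 16 alternative settings, among them DESeq2 (adjusted p = 0.0174). Its edgeR adjusted p reached 0.217, without S1P replicate 6. Fzd7 (chromosome 1, 59538791 to 59543991) had 61.5, 62.1, 72.9 and 72.1 CPM in the S1P libraries, replicates 5 to 8, against 72.7, 88.4, 102.5 and 86.8 CPM in the vehicle libraries, replicates 1 to 4. Only S1P replicate 7 reached the lowest vehicle value, that of vehicle replicate 1. Its log2 fold change was -0.38 (SE 0.13, edgeR adjusted p = 0.0972). Fzd7 passed in 3 of 16 alternative settings, among them without vehicle replicate 1 (edgeR adjusted p = 0.048) and with DESeq2 (adjusted p = 0.0368). Its edgeR adjusted p reached 0.262, without S1P replicate 6.

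Fzd3 (chromosome 14, 65819663 to 65881500), a receptor used in planar polarity, ran the other way. It had 8.81, 9.67, 9.47 and 10.6 CPM in S1P replicates 5 to 8, against 8.10, 6.68, 8.21 and 5.23 CPM in vehicle replicates 1 to 4. The groups did not overlap, with a log2 fold change of 0.45 (SE 0.19, edgeR adjusted p = 0.182). Fzd6, also used in planar polarity, had 1.88, 8.65, 6.61 and 6.47 CPM in S1P libraries and 1.14, 4.82, 2.22 and 1.60 CPM in vehicle libraries. S1P replicate 5 lay among the vehicle values, and the log2 fold change of 1.27 (SE 0.54) did not pass (edgeR adjusted p = 0.182). The share of Fzd1 in the summed Frizzled level (CPM per kb) was 32.9% to 41.0% in S1P libraries and 33.5% to 49.1% in vehicle libraries.

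By mean level per length in S1P libraries the order was Fzd1 (34.6 ± 4.71 CPM per kb), Fzd2 (15.3 ± 2.24), Fzd7 (14.8 ± 1.36), Fzd8 (9.90 ± 2.95), Fzd4 (9.22 ± 3.89), Fzd5 (6.35 ± 0.866), Fzd9 (1.27 ± 0.302), Fzd6 (1.22 ± 0.594) and Fzd3 (0.753 ± 0.0589), with SD over n = 4. In vehicle libraries the means in CPM per kb were 46.3 ± 4.98 for Fzd1, 21.0 ± 11.0 for Fzd2, 19.3 ± 2.69 for Fzd7, 11.1 ± 3.73 for Fzd8, 10.4 ± 2.56 for Fzd4, 5.69 ± 1.07 for Fzd5, 2.57 ± 2.24 for Fzd9, 0.507 ± 0.342 for Fzd6 and 0.551 ± 0.11 for Fzd3. Fzd1 lay above all others in each group, while Fzd2 and Fzd7 did not differ beyond their spread, nor did Fzd8 and Fzd4. Fzd9 and Fzd6 did not differ beyond their spread in S1P libraries. In vehicle libraries Fzd9 ran from 1.00 to 5.89 CPM per kb and Fzd6 from 0.236 to 1.00 CPM per kb.

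The log2 fold change of Fzd2 rested on vehicle replicate 4, while that of Fzd8 lay within its SE and did not rest on that library alone. Fzd2 had 50.03, 52.8, 53.5 and 68.3 CPM in S1P replicates 5 to 8, against 55.9, 60.4, 54.4 and 137 CPM in vehicle replicates 1 to 4. Its log2 fold change was -0.45 (SE 0.30, edgeR adjusted p = 0.367) with all libraries and -0.018 without that library. Fzd8 had 38.9, 51.4, 78.9 and 67.4 CPM in the S1P libraries and 44.5, 57.7, 65.0 and 96.9 CPM in the vehicle libraries. Its log2 fold change was -0.16 (SE 0.27, edgeR adjusted p = 0.741). It became 0.087 without vehicle replicate 4 and -0.0015 without S1P replicate 5. Fzd4, the receptor of the retinal vessel signal norrin, had 30.2, 51.0, 80.9 and 85.8 CPM in S1P libraries and 46.1, 73.2, 87.5 and 71.4 CPM in vehicle libraries. The spread within each group was wider than the difference (log2 fold change -0.17, SE 0.32, edgeR adjusted p = 0.767).

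**Figure D2:**
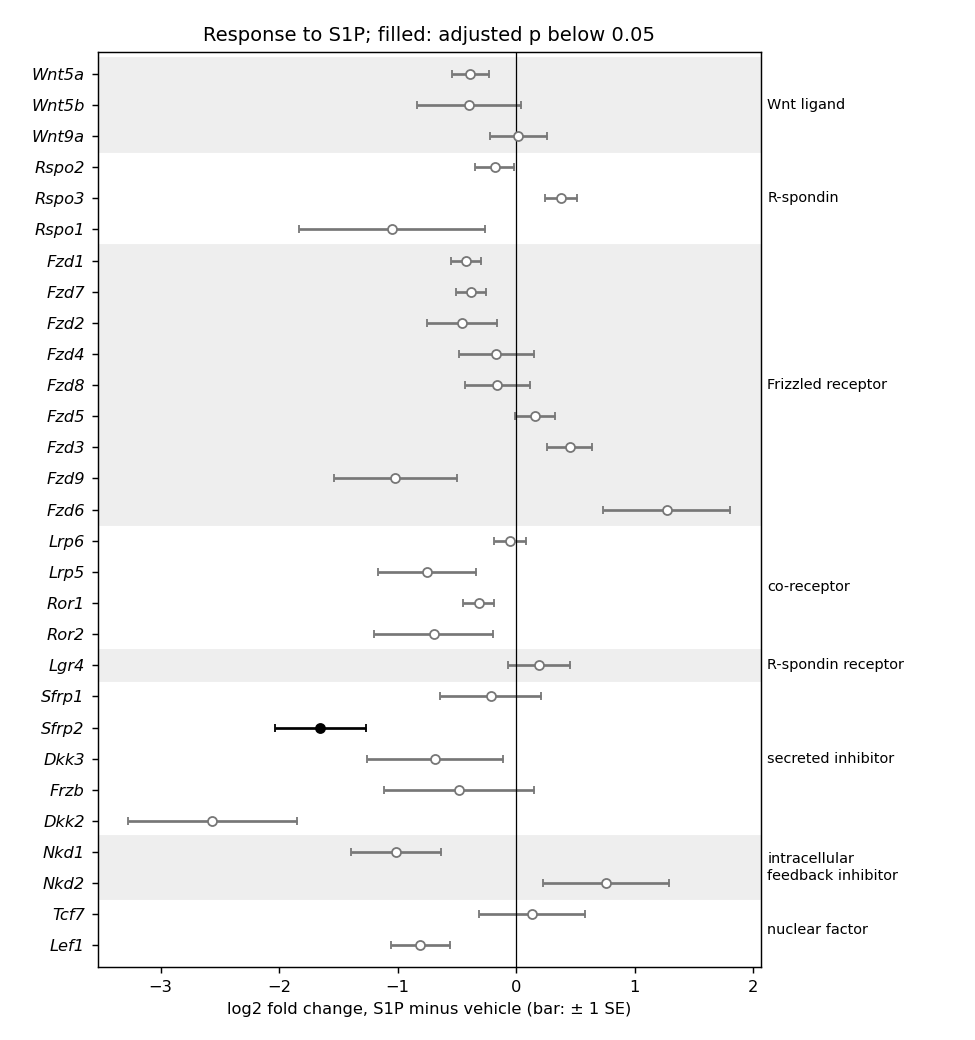
Log2 fold change, S1P minus vehicle, of the 29 tested members with bars of 1 SE (n = 4 libraries per group), by role. The filled point marks Sfrp2, the member past the edgeR threshold, at -1.65. All 5 tested genes grouped by symbol as secreted inhibitors lie left of 0, as do 21 of the 29 members and 6389 of the 11844 tested genes. Sfrp1 was at 0.15 when vehicle replicate 3 was left out.

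Among the co-receptors, all 4 were tested and none passed. Lrp6, which carries the beta-catenin signal with a Frizzled receptor (chromosome 6, 134396294 to 134517183), had 240, 306, 315 and 367 CPM in S1P replicates 5 to 8, against 315, 336, 323 and 299 CPM in vehicle replicates 1 to 4. The vehicle values fell inside the S1P range, and the log2 fold change was -0.051 (SE 0.13, edgeR adjusted p = 0.834). Lrp5, its relative with a known part in bone mass (chromosome 19, 3584628 to 3686764), had 71.6, 75.4, 83.1 and 85.3 CPM in the S1P libraries, against 64.2, 84.4, 96.4 and 287 CPM in the vehicle libraries. Vehicle replicate 4 was the highest by far. The log2 fold change of Lrp5 was -0.75 (SE 0.42, edgeR adjusted p = 0.293) with it and -0.050 without it.

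Ror1, a receptor for Wnt5a, had 50.8, 39.9, 52.7 and 58.9 CPM in S1P replicates 5 to 8, against 62.7, 65.7, 65.5 and 57.9 CPM in vehicle replicates 1 to 4. S1P replicate 8 lay just above vehicle replicate 4, and the log2 fold change of -0.32 (SE 0.13) did not pass (edgeR adjusted p = 0.175). Ror2, the other receptor of that kind, was lower throughout, at 2.53 to 3.53 CPM in S1P libraries and 1.71 to 11.5 CPM in vehicle libraries, with replicate 4 the highest. The R-spondin receptor gene Lgr4 (chromosome 2, 109757604 to 109854614) had 170, 328, 358 and 446 CPM in S1P replicates 5 to 8, against 215, 322, 309 and 296 CPM in vehicle replicates 1 to 4. Lgr4 was lowest in S1P replicate 5 and highest in S1P replicate 8, so the S1P range held that of the vehicle libraries (log2 fold change 0.19, SE 0.26, edgeR adjusted p = 0.675). Lgr5, a stem cell marker in gut, was below the filter with 27, 1, 8 and 9 counts in S1P libraries and 33, 3, 0 and 2 counts in vehicle libraries.

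The secreted inhibitors held the only called member. Sfrp2 (chromosome 3, 83570043 to 83578438) had 36.6, 33.4, 54.8 and 73.4 CPM in S1P replicates 5 to 8, against 67.4, 146, 163 and 248 CPM in vehicle replicates 1 to 4. S1P replicate 8 was above vehicle replicate 1, so the groups overlapped, and the vehicle libraries spread more widely. Sfrp2 averaged 49.5 ± 18.5 CPM in S1P libraries and 156 ± 73.9 CPM in vehicle libraries (SD, n = 4 each). The log2 fold change was -1.65 (SE 0.38, edgeR adjusted p = 0.0292). With single libraries left out, Sfrp2 was called in 3 of 8 fits, lacking vehicle replicate 1, vehicle replicate 4 or S1P replicate 8. It was not called when vehicle replicate 2 or 3 or S1P replicate 5, 6 or 7 was omitted, where the largest edgeR adjusted p was 0.0993, and the log2 fold change was -1.93 to -1.34 over the 8. DESeq2 called it too (adjusted p = 0.000203).

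Sfrp1, the closest relative of Sfrp2 in this group, did not pass. It had 56.0, 81.8, 140 and 117 CPM in S1P replicates 5 to 8, against 41.3, 98.6, 192 and 126 CPM in vehicle replicates 1 to 4. The groups overlapped almost fully, with the lowest value of each in S1P replicate 5 and vehicle replicate 1 (log2 fold change -0.22, SE 0.43, edgeR adjusted p = 0.778). Per length, Sfrp2 and Sfrp1 were nearly level in S1P libraries, at 23.0 ± 8.59 and 22.6 ± 8.50 CPM per kb, whereas in vehicle libraries Sfrp2 stood at 72.5 ± 34.3 and Sfrp1 at 26.2 ± 14.3 CPM per kb (SD, n = 4 each). The ratio of Sfrp2 to Sfrp1 within a library was 1.33, 0.83, 0.795 and 1.27 in S1P replicates 5 to 8, against 3.31, 3.00, 1.72 and 3.99 in vehicle replicates 1 to 4. Unlike Sfrp2 alone, this ratio did not overlap between the groups, and it is given without a test for the reason stated for the R-spondin genes.

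**Figure D3:**
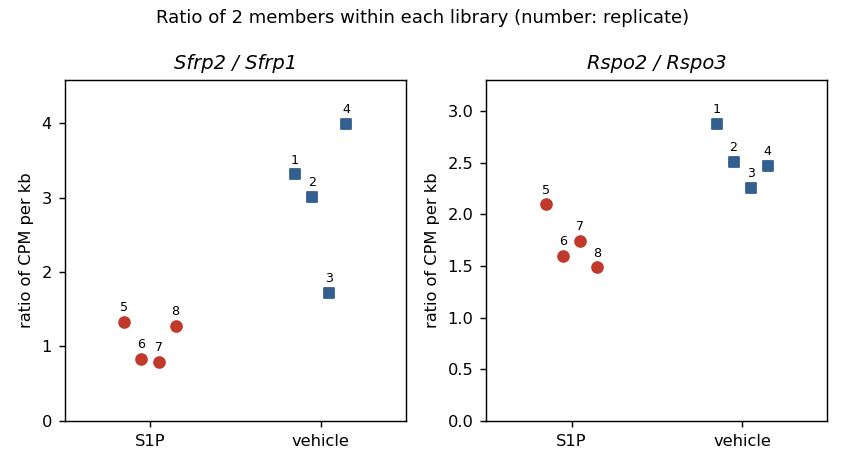
Ratio of Sfrp2 to Sfrp1 and of Rspo2 to Rspo3 (CPM per kb of exon) in each library, numbered by replicate, S1P at the left and vehicle at the right. The Sfrp2 to Sfrp1 ratio was at most 1.33 in S1P libraries and at least 1.72 in vehicle libraries, and the Rspo2 to Rspo3 ratio at most 2.10 and at least 2.25.

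Dkk2, which binds the Lrp5 and Lrp6 co-receptors (chromosome 3, 131748056 to 131843457), was scarce. It had 10, 1, 10 and 2 counts in S1P replicates 5 to 8, or 0.722, 0.0727, 0.734 and 0.144 CPM, against 71, 28, 11 and 29 counts, or 5.04, 2.08, 0.814 and 2.11 CPM, in vehicle replicates 1 to 4. Every S1P library lay below every vehicle library, with 10 counts against 11 at the closest. The log2 fold change was -2.56 (SE 0.72), and it did not pass (edgeR adjusted p = 0.0571). Dkk2 passed in 3 of 15 alternative settings, among them without vehicle replicate 3 (edgeR adjusted p = 0.0387) and with DESeq2 (adjusted p = 0.00829). Its edgeR adjusted p reached 0.155, without S1P replicate 8.

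The other tested inhibitors, Dkk3 and Frzb, varied widely within each group. Dkk3 ranged from 1.52 to 9.56 CPM in S1P libraries and from 3.20 to 16.7 CPM in vehicle libraries, and Frzb from 1.38 to 10.7 CPM in S1P libraries and from 2.23 to 15.3 CPM in vehicle libraries. Neither passed (edgeR adjusted p = 0.48 and 0.659). The summed level of all 9 inhibitors was 32.6 to 67.3 CPM per kb in S1P libraries and 45.6 to 155 CPM per kb in vehicle libraries. Below the filter, Sfrp4 had 2, 0, 0 and 0 counts in S1P libraries and 8, 4, 5 and 2 counts in vehicle libraries. Notum, an enzyme that strips the lipid from Wnt proteins, had 4 to 9 counts in S1P libraries and 0 to 15 in vehicle libraries. Dkk1 and Sfrp5 had no more than 2 counts in any library.

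**Figure D4:**
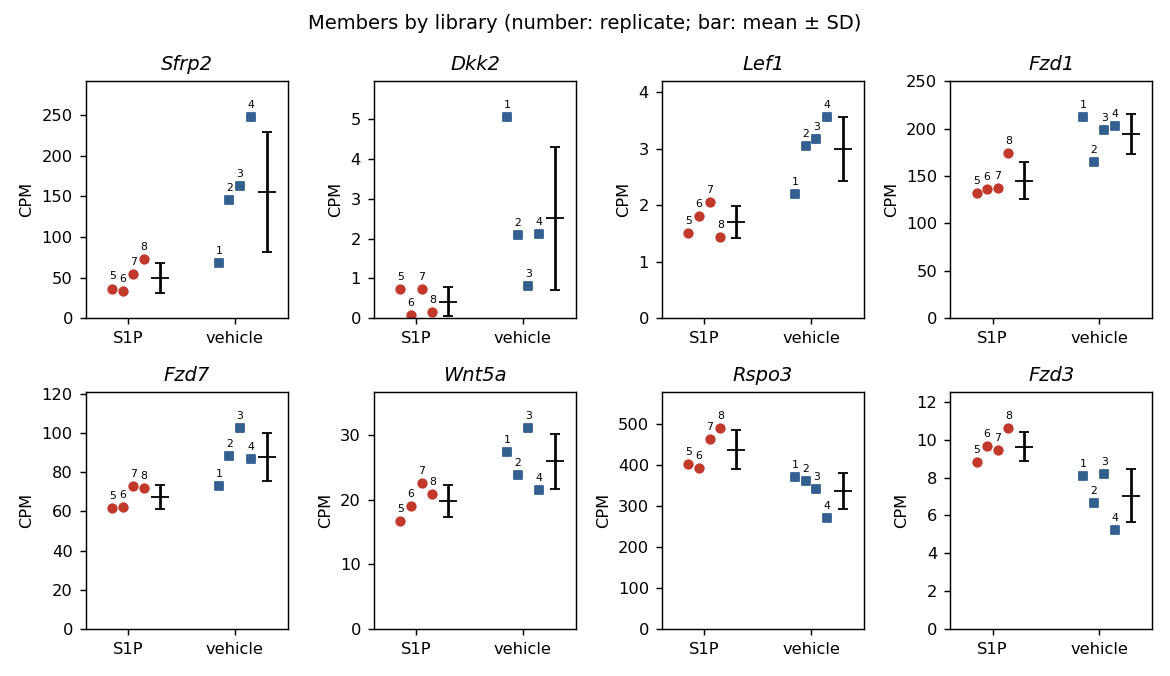
CPM in each library, numbered by replicate, for Sfrp2, Dkk2, Lef1, Fzd1, Fzd7, Wnt5a, Rspo3 and Fzd3, S1P left of vehicle, with mean ± SD (n = 4 per group). The groups do not overlap for Dkk2, Lef1, Rspo3 and Fzd3, while Sfrp2 overlaps through S1P replicate 8 (73.4 CPM) and vehicle replicate 1 (67.4 CPM).

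The intracellular feedback inhibitors and the nuclear factors Lef1 and Tcf7 were low in both groups. Axin2, the feedback inhibitor most used as a readout of beta-catenin, had 1, 1, 1 and 4 counts in S1P replicates 5 to 8, against 0, 1, 3 and 4 counts in vehicle replicates 1 to 4, and was not tested. Fitted without the filter on low counts, Axin2 did not pass (edgeR adjusted p = 0.929). With so few counts, a moderate difference could have gone unseen. Nkd1, which binds Dishevelled, had 4.55, 3.85, 3.38 and 4.89 CPM in S1P libraries and 5.26, 9.42, 4.22 and 14.8 CPM in vehicle libraries. Its log2 fold change of -1.01 (SE 0.38) did not pass (edgeR adjusted p = 0.139) and was -0.59 without vehicle replicate 4, its highest library. Nkd2 was close to the detection limit, at 0.363 to 1.72 CPM in S1P libraries and 0.223 to 0.923 CPM in vehicle libraries.

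Lef1, a nuclear partner of beta-catenin and also one of its targets (chromosome 3, 130813189 to 130927474), had 1.52, 1.82, 2.06 and 1.44 CPM in S1P replicates 5 to 8, against 2.20, 3.04, 3.18 and 3.56 CPM in vehicle replicates 1 to 4. The groups did not overlap, from 20 to 28 counts in S1P libraries and 31 to 49 in vehicle libraries. The log2 fold change was -0.81 (SE 0.25), and it did not pass (edgeR adjusted p = 0.0823). Lef1 passed in none of the 16 alternatives tried, where its adjusted p ran from 0.053 to 0.221. Tcf7, of the same factor family, had 2.60 to 5.53 CPM in S1P libraries and 1.63 to 6.39 CPM in vehicle libraries, so the vehicle range held that of the S1P libraries.

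Of the tested members, 21 had a negative and 8 a positive log2 fold change, and the median was -0.38, against -0.036 over all tested genes. This median rested on vehicle replicate 4: without it the median was -0.079, with 17 negative and 12 positive, and without S1P replicate 5 as well it was 0.022. In 14 of the 29 tested members vehicle replicate 4 was the highest of the 8 libraries, a count not taken over all tested genes. In 10, also without a count over all tested genes, vehicle replicate 4 lay more than 1 log2 unit above the mean of the other vehicle libraries. That deviation and the GC content of the longest transcript, which ran from 40.3% in Fzd3 to 62.2% in Fzd9, had r = 0.75 across the 29 genes, which share the same libraries. Fzd9 had 1.95, 3.13, 2.94 and 3.59 CPM in S1P libraries and 3.98, 3.78, 2.29 and 13.5 CPM in vehicle libraries, and its log2 fold change was -1.02 with vehicle replicate 4 and -0.21 without it. For Sfrp2 the log2 fold change without that library was -1.34 and passed (edgeR adjusted p = 0.0456).

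**Figure D5:**
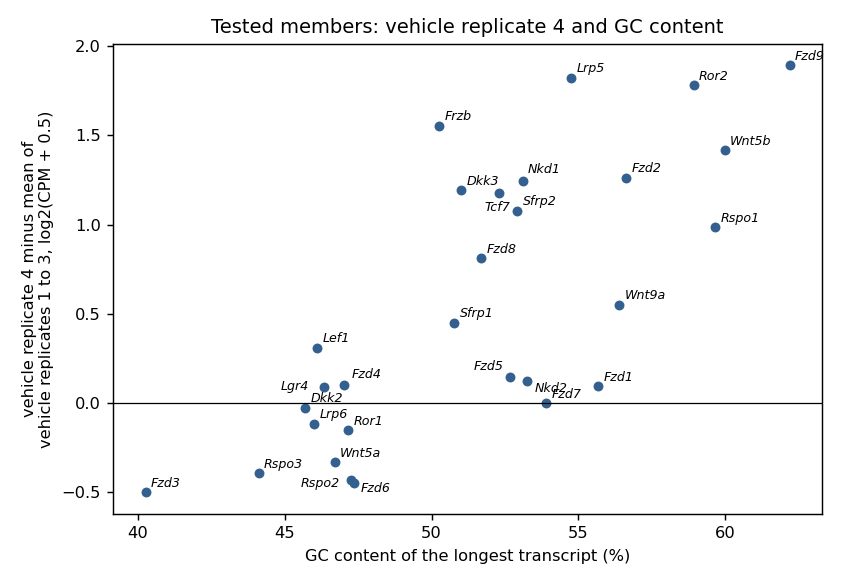
Deviation of vehicle replicate 4 from the mean of vehicle replicates 1 to 3, in log2(CPM + 0.5), against the GC content of the longest transcript, with 1 point per tested member (n = 29, r = 0.75). Lrp5, Fzd9 and Ror2 lie highest and Fzd3, at the lowest GC content, lies lowest.

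Beyond the members, 78 further genes of the pathway were listed, of which 73 were in the table and 65 were tested. None of these was called higher, 4 were called lower and 61 did not pass, so 6.15% were called lower, against 2.90% of all tested genes, and 0 were called higher, against 5.60%. In either direction 8.50% of all tested genes were called. In ligand secretion, 1 of 2 genes fell. Porcn, the enzyme that attaches the lipid to Wnt proteins, had 4.98, 3.71, 4.77 and 4.81 CPM in S1P replicates 5 to 8, against 9.16, 9.13, 11.1 and 18.9 CPM in vehicle replicates 1 to 4, with no overlap (log2 fold change -1.40, SE 0.27, edgeR adjusted p = 0.013). Its call was lost in 1 of the 16 alternatives, without S1P replicate 6 (adjusted p = 0.0563). Wls, which carries Wnt proteins to the surface, had 442 to 549 CPM in S1P libraries and 253 to 656 CPM in vehicle libraries.

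Among 8 tested surface and secreted regulators, 1 fell and 7 did not pass. It was Kremen1, a Dkk receptor, with 46.3, 37.4, 38.5 and 35.6 CPM in S1P libraries and 56.5, 50.9, 51.4 and 62.3 CPM in vehicle libraries (log2 fold change -0.49, SE 0.12, edgeR adjusted p = 0.041). Of 12 tested nuclear partners, 2 fell and 10 did not pass, with a median log2 fold change of -0.28. The Groucho-type repressor Tle2 averaged 23.8 ± 4.27 CPM in S1P libraries and 68.0 ± 37.1 CPM in vehicle libraries, with no overlap (SD, n = 4 each, log2 fold change -1.51, edgeR adjusted p = 0.0265). Pygo1, a beta-catenin co-activator, averaged 28.7 ± 5.53 CPM in S1P libraries and 48.5 ± 11.5 CPM in vehicle libraries, with overlap (log2 fold change -0.76, edgeR adjusted p = 0.0435). With single libraries left out, Tle2 was called in 4 of 8 fits, where its edgeR adjusted p reached 0.0951, and Kremen1 and Pygo1 in 2 each, where theirs reached 0.142 and 0.144.

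None of the 17 tested genes of the beta-catenin relay and destruction complex passed (median log2 fold change -0.11). By the unadjusted edgeR p (under 0.05), 2 were lower and 0 higher, which is 11.8% of the 17 beside 24.9% of all tested genes. Ctnnb1, which encodes beta-catenin, had 864, 896, 926 and 871 CPM in S1P replicates 5 to 8, against 821, 791, 764 and 750 CPM in vehicle replicates 1 to 4. All S1P values lay above all vehicle values, by a small margin (log2 fold change 0.19, SE 0.10, edgeR adjusted p = 0.272). The kinase Csnk1a1 averaged 495 ± 37.0 CPM in S1P libraries and 468 ± 110 CPM in vehicle libraries (SD, n = 4 each). None of 9 tested planar polarity genes passed either (median -0.27). At an unadjusted edgeR p under 0.05, 1 was lower and 0 higher, which is 11.1% of the 9 beside the same 24.9%. Daam1 and Invs were the most abundant, at 63.0 ± 10.5 and 47.1 ± 5.14 CPM in S1P libraries and 83.9 ± 27.1 and 50.5 ± 4.17 CPM in vehicle libraries.

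None of 17 tested genes often used as beta-catenin targets passed (median log2 fold change -0.095). By the unadjusted edgeR p (under 0.05), 5 were higher and 1 lower. This is 35.3% of the 17, beside 24.9% of all tested genes (1559 higher and 1385 lower of 11844). The smallest adjusted p-values among the 17 were those of Wisp1 and Tnfrsf11b, named after their values were seen. Wisp1, a Wnt-inducible matricellular gene, had 255, 558, 612 and 411 CPM in S1P replicates 5 to 8, against 102, 237, 266 and 136 CPM in vehicle replicates 1 to 4. Only S1P replicate 5 lay below a vehicle library, replicate 3 (log2 fold change 1.31, SE 0.35, edgeR adjusted p = 0.0511). Tnfrsf11b, the osteoclast inhibitor osteoprotegerin, had 142, 95.7, 92.2 and 96.9 CPM in S1P libraries and 88.2, 51.8, 40.5 and 46.2 CPM in vehicle libraries, with no overlap (log2 fold change 0.91, SE 0.25, edgeR adjusted p = 0.0557). Ccnd1, the G1 cyclin, had 502, 216, 200 and 245 CPM in S1P replicates 5 to 8, against 479, 384, 262 and 413 CPM in vehicle replicates 1 to 4. S1P replicate 5 was above all vehicle libraries and the other S1P libraries were below them (log2 fold change -0.40, SE 0.31, edgeR adjusted p = 0.439). Wisp2, of the same family as Wisp1, had 589, 667, 668 and 573 CPM in the S1P libraries and 330, 405, 455 and 577 CPM in the vehicle libraries. Only vehicle replicate 4 reached the S1P range (log2 fold change 0.50, SE 0.17, edgeR adjusted p = 0.103). Ascl2, a target in intestinal stem cells, averaged below 0.25 CPM.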

How the data were processed

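Whole-number read counts per Ensembl gene were deposited by the authors as 1 table of 8 libraries, with symbols and mm9 spans. STAR 2.5.3a and build mm9 are named per the submitters' processing notes. Not given in the sources used here are the counting tool, its annotation and its strand setting. Totals were nearly equal, so libraries may have been brought to a common size before deposit, and depth before that is unknown.

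Genes were filtered with filterByExpr (minimum count 10), scaled by trimmed mean of M-values (TMM) and fitted over all 8 libraries with edgeR 4.0.16 in R 4.3.3 (robust quasi-likelihood test, treatment only, Benjamini-Hochberg over 11844 genes, threshold 0.05), after a check on simulated counts. The SE comes from the F statistic. Levels per kb use union exon length from GENCODE M21, found for 45 of 45 members. Spans overlapping another tested gene were Wnt5b and Fzd4.

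Given in full were members past the threshold, the 12 most abundant and those without overlap. Of each other list, up to 4 called genes, or the 2 most abundant, were given. Members and lists were chosen with earlier results of these data known. Alternatives were other size factors, no filter, a 1 CPM filter, DESeq2 1.42.0, limma-voom (limma 3.58.1), 1 surrogate variable (sva 3.50.0) and leaving out libraries. Replicates differed beyond sampling noise (chi-square per gene of 10.3 or more).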

Additional observations from a re-analysis of the deposited data

Results flagged for a closer look

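In 58 groups of 4 libraries (29 tested members, 2 groups each), 8 libraries lay far from the other 3 of their group by Dixon's gap test, where chance flags about 1 in 20 groups. Vehicle replicate 4 accounted for 4 of them, all high: Fzd2 at 137 CPM (others 54.4 to 60.4), Fzd9 at 13.5 CPM (2.29 to 3.98), Lrp5 at 287 CPM (64.2 to 96.4) and Wnt5b at 16.2 CPM (5.47 to 5.94). The others were S1P replicate 8, high for Fzd1 at 175 CPM (133 to 137) and for Wnt5b at 11.0 CPM (4.19 to 5.21), S1P replicate 5, low for Ror2 at 2.53 CPM (3.38 to 3.53), and vehicle replicate 1, low for Fzd5 at 28.4 CPM (41.8 to 44.1).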

How the results depend on the processing

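Counts of called members were small under every setting. The count of higher members was 0, and 1 (Rspo3) with a surrogate variable. The count of lower members was 1, but 0 without a filter on low counts (Sfrp2 adjusted p = 0.0502), 4 with DESeq2, 5 with a surrogate variable, 0 to 2 when single libraries were left out and 0 when vehicle replicate 4 and S1P replicate 5 were both omitted, a setting chosen after seeing the data. Over all genes, 663 were higher and 344 lower. With a surrogate variable these were 1471 and 1015, with DESeq2 967 and 804, without both named libraries 1178 and 934, and over the fits without 1 library 333 to 1133 and 101 to 723. In these last fits both counts moved by over 1.5 times without vehicle replicate 4 (1133 and 723), S1P replicate 6 (333 and 101), S1P replicate 7 (408 and 151) and S1P replicate 8 (360 and 108).

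Log2 fold changes of 25 genes were recomputed under 16 alternatives. Of 399 values, 352 kept their direction and side of the threshold and 11 turned, none of a called gene. Over the fits without 1 library, Fzd4 ran from -0.36 to 0.062, Fzd8 from -0.33 to 0.087, Lrp6 from -0.15 to 0.051, Ror2 from -1.02 to 0.033, Sfrp1 from -0.52 to 0.15 and Fzd2, which kept its sign there, from -0.61 to -0.018. With vehicle replicate 4 and S1P replicate 5 both omitted, Fzd2 was 0.033, Fzd4 0.075, Fzd8 0.24, Lrp6 0.022, Ror2 0.13 and Sfrp1 0.03. Without those 2 libraries Sfrp2 stood at -1.22 (adjusted p = 0.076). The causes were not tested. The groups share no replicate number in the labels, so no paired analysis was made and every fit took the libraries as unpaired. Depth limits the 16 members below the filter, of which 11 had at most 5 counts in any library. Fitted without the filter none passed, and the smallest edgeR adjusted p-values were those of Sfrp4 (0.0989) and Wnt7b (0.114). The groups of Sfrp4 met at 2 counts, in S1P replicate 5 and vehicle replicate 4. Wnt7b had 0 counts in every S1P library and as few as 1 in vehicle libraries.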

Other observations

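Some libraries of the 2 groups deviated from their group means in the same members. S1P replicate 5 was the lowest S1P library for 19 of the 29 tested members. Vehicle replicate 1 was the lowest vehicle library for 15, with 13 in common, among them Sfrp1, Dkk3, Fzd4, Fzd8 and Lgr4. Such counts were not taken over all tested genes. S1P replicate 5 and vehicle replicate 1 also held the most Lgr5 reads of their group, 27 and 33 counts. Across the 29 tested members, the deviations of S1P replicate 6 and vehicle replicate 2 had r = 0.78, those of S1P replicate 5 and vehicle replicate 1 r = 0.72, those of S1P replicate 7 and vehicle replicate 3 r = 0.51 and those of S1P replicate 8 and vehicle replicate 4 r = 0.37, while the other 12 combinations ran from -0.53 to 0.32. Across all tested genes the same 4 combinations had r = 0.13, 0.53, 0.58 and 0.17, and the other 12 ran from -0.38 to 0.30. Genes are not independent replicates, and the labels pair no libraries.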
